A study of Arabidopsis thaliana with 12 samples.

Results

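The tau and phi classes are the plant-specific, largest classes of glutathione transferases, and the 41 genes named GSTU1 to GSTU28 (28 tau members) and GSTF2 to GSTF14 (13 phi members) were taken by gene identifier from the 32833 genes of the count table. They were chosen by gene name and identifier, with earlier results of these data known. Levels were measured by RNA-seq in root tips of Arabidopsis thaliana seedlings, 6 days after germination, and the study asked how roots without a working AGO10, an Argonaute protein that binds small RNAs, differ from Col-0 in their response to cytokinin. The 4 groups of 3 libraries were the mutant ago10-1 (which carries a T-DNA insertion in AGO10 in the Col-0 background) treated with 6-benzyladenine (BAP, a synthetic cytokinin), ago10-1 mock, wild type Col-0 treated with BAP, and Col-0 mock. BAP was sprayed at 1 µM, and root tips were taken after 2 h. The labels call the other plants mock, while the study's methods describe them as left untreated. By those methods, spraying and BAP cannot be told apart in the comparisons of BAP with mock. Each library came from 50 mg of root tips of plate-grown seedlings in 150 µE of light.

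Glutathione transferases join the thiol of glutathione to reactive compounds, after which the conjugate can be moved into the vacuole by ABC transporters of the ABCC family. Other members act as peroxidases or carry small molecules without changing them. Many tau genes, which stand in rows of duplicated neighbours, are known to respond within hours to herbicides, oxidised lipids and hormones, in part through TGA factors, bZIP proteins that bind the letters TGACG.

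The replicates numbered 1 stood apart. On the first principal component of all genes tested, which held 53.6% of the variance, the 4 replicate 1 libraries lay between -91.0 and -18.4 and the other 8 between -1.78 and 68.6. The labels call the replicates biological, and what set number 1 apart is not given. A pair of columns of Col-0 mock carry the same heading, so they are called libraries A and B here, and their number is unknown. Between 19394256 and 34899796 reads fell on genes per library. AGO10 itself ranged over 130.4 to 175 and 138 to 187 normalized counts in ago10-1 BAP and ago10-1 mock, against 568 to 1051 and 696 to 1039.8 in Col-0 BAP and Col-0 mock. The root tip genes SMB and PLT1, markers of the root cap and of the stem cell niche, were present in every library. Expression is given as normalized counts, which are reads divided by the size factor of the library.

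Of the 41 members, 29 stood in 9 tandem clusters and 12 were single genes, with 23 on chromosome 1, 11 on chromosome 2 and the rest on chromosomes 3, 4 and 5. The cluster with the most genes, GSTU1 to GSTU7, covered 14.6 kb (chr2:12617936-12632538, RefSeq annotation on build TAIR10.1, minus strand). GSTU19 to GSTU23 covered 20.6 kb (chr1:29467412-29488007), GSTU24 to GSTU26 covered 7.08 kb (chr1:5869543-5876620) and GSTF4 to GSTF7 covered 7.89 kb (chr1:658578-666471). In coding sequence, 26 of the 29 clustered members were nearest to a member of their own cluster. Of 456 pairs within a class, 10 were at least 80% identical and 2 at least 90%. These 2 were GSTF2 with GSTF3 (94.5%, longest identical stretch 74 bases) and GSTF6 with GSTF7 (94.3%, 116 bases), so reads of these genes may have been shared or lost, and their single values are uncertain.

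The 250 bases before the annotated start of the 4 members that were called after BAP in ago10-1 are printed here. All 4 were called higher, and of them GSTU1 and GSTU4 share a tandem cluster. Their upstream sequences differed in the TGA factor core. Capitals mark TGACG on either strand (CGTCA on the other), the sequences come from the RefSeq genome TAIR10.1, and each reads 5′ to 3′ towards its gene on the strand of that gene.
GSTU17 (chr1:3398359-3398608, minus strand): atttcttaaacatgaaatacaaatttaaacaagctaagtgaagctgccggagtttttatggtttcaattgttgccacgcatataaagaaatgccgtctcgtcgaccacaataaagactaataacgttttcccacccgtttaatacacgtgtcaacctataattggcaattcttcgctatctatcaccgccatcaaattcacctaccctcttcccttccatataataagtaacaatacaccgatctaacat
GSTU1 (chr2:12632539-12632788, minus strand): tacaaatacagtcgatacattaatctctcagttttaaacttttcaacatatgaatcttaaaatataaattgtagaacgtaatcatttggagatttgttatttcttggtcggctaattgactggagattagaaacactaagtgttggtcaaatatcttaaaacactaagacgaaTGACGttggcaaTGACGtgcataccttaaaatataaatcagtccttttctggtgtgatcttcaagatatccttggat
GSTU4 (chr2:12627892-12628141, minus strand): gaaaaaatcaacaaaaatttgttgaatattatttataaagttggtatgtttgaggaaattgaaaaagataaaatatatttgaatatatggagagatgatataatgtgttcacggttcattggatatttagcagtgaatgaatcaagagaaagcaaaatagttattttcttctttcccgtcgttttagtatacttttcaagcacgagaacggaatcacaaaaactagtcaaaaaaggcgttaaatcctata
GSTU25 (chr1:5871774-5872023, plus strand): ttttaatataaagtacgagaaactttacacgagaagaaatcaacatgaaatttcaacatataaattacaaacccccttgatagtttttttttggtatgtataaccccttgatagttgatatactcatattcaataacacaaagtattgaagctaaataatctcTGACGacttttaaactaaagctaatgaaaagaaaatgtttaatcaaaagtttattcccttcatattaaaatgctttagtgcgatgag
The windows of GSTU17 and GSTU4 held no TGACG, that of GSTU1 held 2, beginning 77 and 65 bases before the start, and that of GSTU25 held 1, beginning 87 bases before the start. Over the members, 14 of 41 windows (34.1%) held TGACG on either strand, 11 of 28 in the tau class and 3 of 13 in the phi class, beside 5098 of 27443 windows (18.6%) of the protein-coding genes in the table. AGATT, a core bound by type-B response regulators of the cytokinin pathway, was searched in the same way and stood in 25 of 41 member windows (61.0%), beside 63.7% of those of all protein-coding genes. Another annotated gene reached into 12 of the 41 windows. A match to 5 letters is a description of the sequence and not a measured binding site.

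Together the 41 members took 0.561% to 0.705% of the normalized counts in ago10-1 BAP, 0.482% to 0.553% in ago10-1 mock, 0.490% to 0.738% in Col-0 BAP and 0.410% to 0.513% in Col-0 mock. A few genes made up most of this. GSTU19, GSTF8 and GSTF10 held 57.7% of the members' counts. Within the phi class GSTF8, GSTF10 and GSTF9 held 98.1%, and within the tau class GSTU19 alone held 40.3%. At the other end, 8 members (4 tau, 4 phi) had a mean below 10 normalized counts and were not tested. They were GSTU2, GSTU3, GSTU15, GSTU21, GSTF3, GSTF5, GSTF11 and GSTF14, of which GSTF5 and GSTF11 were listed at 0 in all 12 libraries. Tests and medians below cover the 33 members that passed this filter, 24 tau and 9 phi, and not all members.

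**Figure D1:**
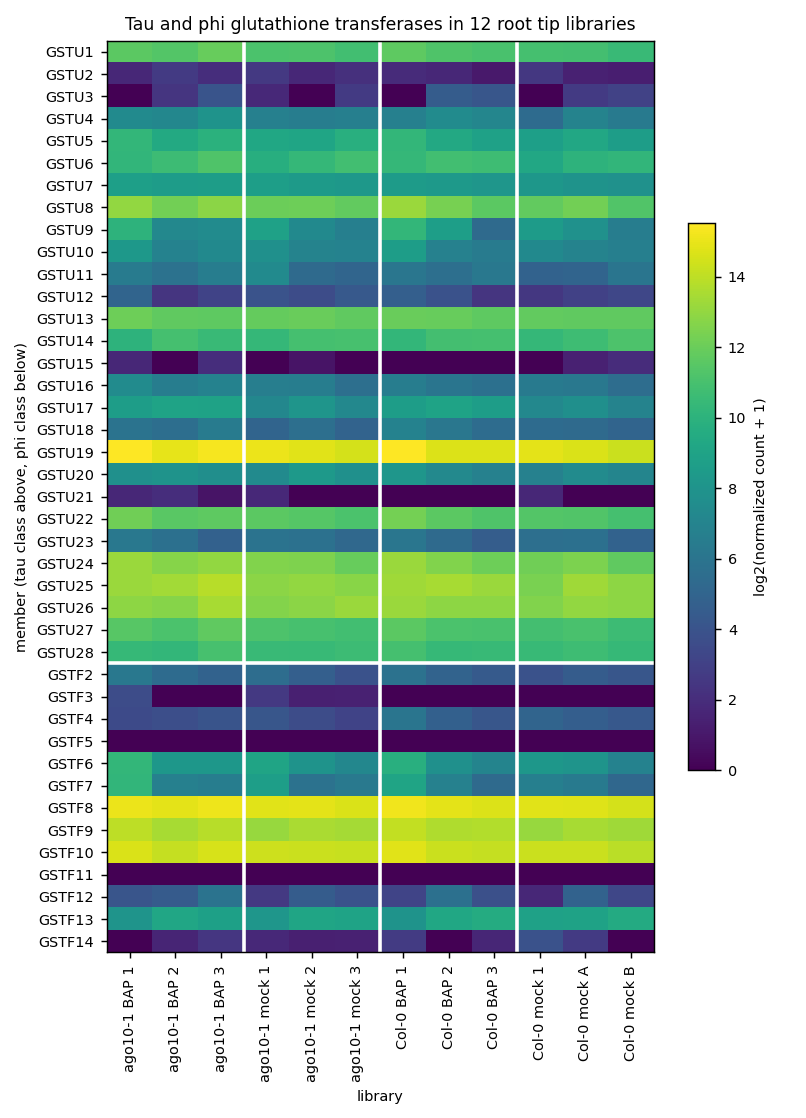
Level of each member in each library, as log2(normalized count + 1) by colour, with libraries across and members down (28 tau above the white line, 13 phi below it). GSTU19, GSTF8, GSTF9 and GSTF10 are bright in all 12 libraries, GSTF5 and GSTF11 are at 0 in all of them, and GSTF6, GSTF7 and GSTU9 are brightest within each group in the library numbered 1.

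Levels can be compared between genes only per kilobase of exon. On that scale GSTU19, a tau enzyme known for activity towards herbicide-like substrates, was highest with a mean over the 12 libraries of 28283 normalized counts per kb. GSTF10, first described as dehydration-responsive ERD13, followed with 18432 per kb, then GSTF8 with 12571, GSTF9 with 10015, GSTU25 with 9119 and GSTU26 with 7427 per kb. The place of GSTF8 depends on its annotated exon length, 2395 bases, beside 1132 for GSTF10. In normalized counts GSTF8 averaged 30107 and GSTF10 20865. Neighbours within a tandem cluster differed widely on the same scale. In the GSTU1 to GSTU7 cluster, GSTU1 averaged 2191 per kb, GSTU6 1042, GSTU5 577, GSTU7 379 and GSTU4 109, while GSTU3 averaged 6.07 and GSTU2 3.10 per kb. In the GSTU19 to GSTU23 cluster, GSTU19 took 90.6% of the summed counts, with GSTU22 at 2873 per kb, GSTU20 at 172, GSTU23 at 54.3 and GSTU21 at 1.01. In contrast, the 3 genes of the GSTU24 to GSTU26 cluster lay close together, at 5121, 9119 and 7427 per kb.

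In libraries, GSTU19 (AT1G78380) had 46193, 31009 and 40901 normalized counts in ago10-1 BAP, 33692, 29203 and 23674 in ago10-1 mock, 47029, 26491 and 26194 in Col-0 BAP, and 29863, 26036 and 19837 in Col-0 mock. The 2 highest values were both of BAP libraries numbered 1, and BAP and mock libraries overlapped in each genotype. GSTF10 had 25236, 18247 and 24434 in ago10-1 BAP, 20851, 20261 and 18909.9 in ago10-1 mock, 29054, 20279.9 and 17934 in Col-0 BAP, and 20024, 19557 and 15592 in Col-0 mock. GSTF8, whose promoter is a classical early stress marker in roots, had 34990.3, 30222 and 36019 in ago10-1 BAP, 29283, 30877 and 26106 in ago10-1 mock, 37633, 29969.6 and 26283 in Col-0 BAP, and 28938, 27769 and 23190.0 in Col-0 mock. Both phi genes overlapped between BAP and mock in each genotype, with pooled log2 fold changes of 0.21 ± 0.13 and 0.23 ± 0.11 (SE).

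Summed over the class, the 28 tau genes had 103345, 78216 and 105166 normalized counts in ago10-1 BAP, 74792, 72882 and 64336 in ago10-1 mock, 109831, 75985 and 67120.1 in Col-0 BAP, and 64529, 71365 and 55704 in Col-0 mock. Every ago10-1 BAP library was above every ago10-1 mock library, whereas BAP and mock overlapped in Col-0. The ratio of the means of BAP over mock was 1.35 in ago10-1 and 1.32 in Col-0. The 13 phi genes summed to 72049 ± 9655 in ago10-1 BAP, 60357 ± 3588 in ago10-1 mock, 69578 ± 14551 in Col-0 BAP and 56087 ± 5507 in Col-0 mock (SD, n = 3 each), with ratios of 1.19 and 1.24 and overlap in both genotypes. Such sums are dominated by the abundant members and were not tested.

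**Figure D2:**
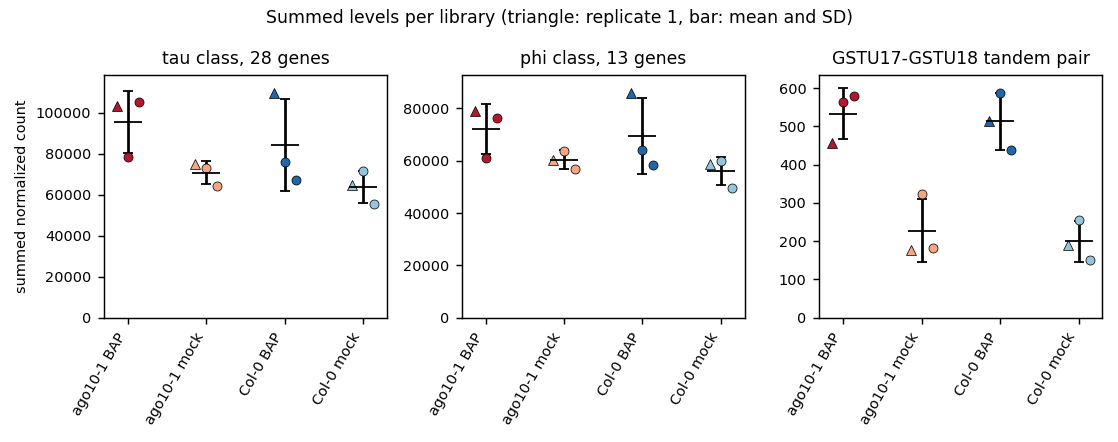
Summed normalized counts per library of the 28 tau genes, the 13 phi genes and the GSTU17-GSTU18 pair, by group, with the mean and SD as bars and replicate 1 as triangles. The tandem pair has no overlap between BAP and mock (438 to 588 over the BAP libraries, against 152 to 324 over the mock libraries), while the phi sums overlap.

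Does BAP change these genes in root tips? Over both genotypes, with genotype as a term of the limma fit, 7 of the 33 tested members were called higher after BAP and none lower, at an unadjusted p under 0.01, where 1.48% of the 19206 genes tested were called in either direction. The 7 were GSTU17, GSTU1, GSTF9, GSTU4, GSTU25, GSTU18 and GSTU27. The log2 fold change was positive in 30 of 33 members (90.9%), beside 52.2% of all genes tested, and its median was 0.44 in the 24 tau members and 0.46 in the 9 phi members, beside 0.01 over all genes. GSTU14, GSTU23 and GSTF13 were the 3 with negative values, between -0.15 and -0.05. As the members were chosen with earlier results of these data known, no test was made of these shares. After Benjamini-Hochberg adjustment over all genes tested, no member passed 0.05 in this limma fit, and 1 gene of the table did (0.00521%). Without replicate 1 of every group, 26 of 33 members were positive, the medians were 0.31 and 0.26, and 3 members were called (GSTU17, GSTU1 and GSTU4), beside 0.916% of all genes. With replicate 1 against the others as a block, 13 members were called, beside 3.36% of all genes.

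GSTU17 (AT1G10370), known as ERD9 for its early response to dehydration and linked to light and drought signalling, had 398, 517 and 490.5 normalized counts in ago10-1 BAP, against 147, 275 and 153 in ago10-1 mock. In Col-0 it had 394, 518 and 394 after BAP, against 149, 216 and 121 in mock. All 6 BAP libraries were above all 6 mock libraries. The log2 fold change was 1.34 ± 0.26 in ago10-1 (limma, adjusted p = 0.91) and 1.45 ± 0.26 in Col-0 (limma, adjusted p = 1). Over both genotypes it was 1.40 ± 0.18 (limma, adjusted p = 0.064). The pooled adjusted p was under 0.05 in 5 of 22 alternatives and lay between 8.8e-08 in DESeq2 and 0.22 in limma without Col-0 mock replicate 1. In ago10-1 alone it was under 0.05 in 2 of 17 alternatives, 0.016 in DESeq2 and 0.033 in limma with the replicate number as a block. In Col-0 alone 1 of 16 alternatives was under 0.05, DESeq2 at 0.018. An exact two-sided permutation of labels within both genotypes gave p = 0.005, the smallest it can give. Full separation of BAP from mock fixes that value. The permutation was run for GSTU17 alone, the member with the largest change, and its p holds no correction for that choice. In each genotype alone the exact permutation test cannot go below 0.1, which it reached in both. The difference was positive within every replicate number that could be paired, at 1.43, 0.91 and 1.68 for numbers 1, 2 and 3 of ago10-1 and 1.40 for number 1 of Col-0. GSTU17 was called under each of the 17, 16 and 22 alternative settings of the 3 BAP comparisons.

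GSTU18 (AT1G10360), its tandem neighbour, stands just downstream, and the 2 annotations (GSTU17 at chr1:3396883-3398358, GSTU18 at chr1:3395551-3396953, both minus strand) share 71 bases, and the 2 coding sequences are 81.6% identical. It had 59.6, 48.0 and 88.2 normalized counts in ago10-1 BAP, 30.6, 49.0 and 30.2 in ago10-1 mock, 119, 70.3 and 43.6 in Col-0 BAP, and 41.4, 40.0 and 31.0 in Col-0 mock. All 3 Col-0 BAP libraries were above Col-0 mock, and 1 ago10-1 mock library lay within the ago10-1 BAP values. The log2 fold changes were 0.81 ± 0.35 in ago10-1, 0.93 ± 0.42 in Col-0 and 0.87 ± 0.26 over both (limma, adjusted p = 0.62). Reads in the shared 71 bases cannot be assigned to either gene without knowing how the counting treated them. This pair had the largest BAP over mock ratio of summed counts among the 9 clusters, 2.34 in ago10-1 and 2.58 in Col-0. GSTU17 alone held 85.3% of the counts of the pair. The GSTF4 to GSTF7 cluster came next, at 2.13 and 2.12, with replicate 1 the highest library of each group. Its sums were 2418, 421 and 408 in ago10-1 BAP, against 974, 319 and 228 in ago10-1 mock. In Col-0 they were 1488, 360 and 183 after BAP, against 425, 364 and 169 in mock.

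**Figure D3:**
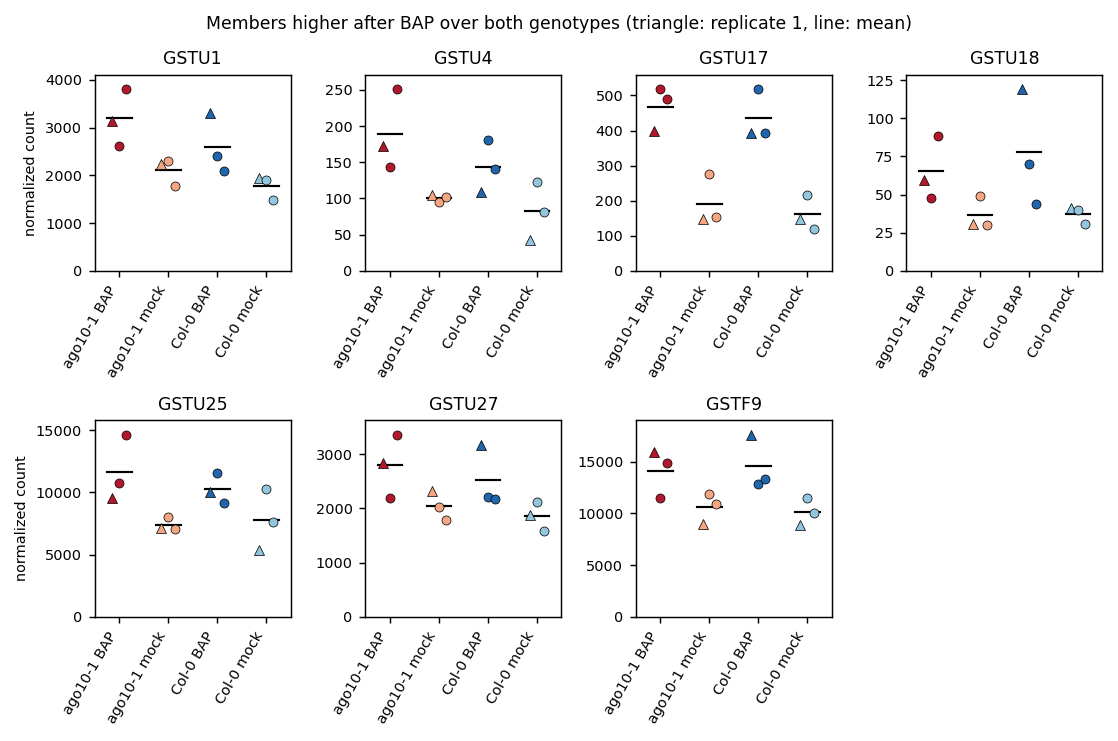
Normalized counts per library of the 7 members called higher after BAP over both genotypes, by group, with the mean as a line and replicate 1 as triangles. GSTU17 separates BAP (394 to 518) from mock (121 to 275) in both genotypes, and GSTU1 does so within each genotype, while the other 5 overlap between BAP and mock in at least 1 genotype.

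In the GSTU1 to GSTU7 cluster all 5 tested genes were positive in both genotypes, with a pooled median log2 fold change of 0.56. GSTU1 (AT2G29490) had 3149.9, 2621 and 3808 normalized counts in ago10-1 BAP, 2247, 2309 and 1779.6 in ago10-1 mock, 3306, 2402 and 2103 in Col-0 BAP, and 1941, 1904 and 1489 in Col-0 mock. BAP and mock did not overlap in either genotype, and the pooled log2 fold change was 0.56 ± 0.13 (limma, adjusted p = 0.40). For GSTU1 1 of 22 alternatives gave a pooled adjusted p under 0.05, DESeq2 at 0.023. GSTU4 (AT2G29460) had 172, 144 and 251 in ago10-1 BAP, 105, 94.8 and 102 in ago10-1 mock, 109.5, 181 and 140.2 in Col-0 BAP, and 42.5, 123 and 81.1 in Col-0 mock. Its groups did not overlap in ago10-1 and overlapped in Col-0, with a pooled log2 fold change of 0.88 ± 0.24 (limma, adjusted p = 0.54). GSTU5, whose message was first described as responsive to auxin, had 1261, 684 and 945 in ago10-1 BAP, 597, 565 and 889 in ago10-1 mock, 1265, 667 and 467 in Col-0 BAP, and 428, 623 and 401 in Col-0 mock. It was not called, at 0.55 ± 0.24 over both genotypes. GSTU6 was at 0.57 ± 0.23 and GSTU7 at 0.26 ± 0.11, also not called.

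In the GSTU24 to GSTU26 cluster, GSTU24 and GSTU25 encode enzymes known to conjugate the explosive TNT. GSTU25 (AT1G17180) had 9523, 10759 and 14632 normalized counts in ago10-1 BAP, 7103, 8056 and 7087 in ago10-1 mock, 10027, 11569.5 and 9132 in Col-0 BAP, and 5369, 10295 and 7624 in Col-0 mock. Its groups did not overlap in ago10-1, and in Col-0 1 mock library lay within the BAP values. The log2 fold change was 0.63 ± 0.17 in ago10-1, 0.44 ± 0.25 in Col-0 and 0.54 ± 0.15 over both genotypes (limma, adjusted p = 0.58). GSTU24 had a similar pooled value, 0.56 ± 0.19, and was not called. GSTU26 had 7586, 6613 and 11576 in ago10-1 BAP, 6346, 7316 and 9375 in ago10-1 mock, 9445, 7437 and 7452 in Col-0 BAP, and 6004, 8147 and 7624 in Col-0 mock. It overlapped in both genotypes, at 0.15 ± 0.15 over both.

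The remaining called members were GSTU27, a single gene, and GSTF9. GSTU27 (AT3G43800) had 2832, 2192 and 3359.7 normalized counts in ago10-1 BAP, 2319, 2021 and 1789 in ago10-1 mock, 3176, 2204 and 2180.0 in Col-0 BAP, and 1888, 2111 and 1576 in Col-0 mock. GSTF9 (AT2G30860), a phi enzyme linked to redox balance, had 15878, 11471 and 14855 in ago10-1 BAP, 8984, 11833 and 10938 in ago10-1 mock, 17577, 12829 and 13353 in Col-0 BAP, and 8876, 11519 and 10075 in Col-0 mock. Both genes separated BAP from mock in Col-0 and overlapped in ago10-1. The pooled log2 fold changes were 0.43 ± 0.13 (limma, adjusted p = 0.63) and 0.46 ± 0.12 (limma, adjusted p = 0.45). For GSTF9 1 of 22 alternatives gave a pooled adjusted p under 0.05, DESeq2 at 0.043.

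By cluster, the pooled log2 fold change of BAP over mock had its highest median, 1.13, in the GSTU17-GSTU18 pair and its lowest, -0.06, in the GSTU13-GSTU14 pair, where GSTU13 was at 0.04 and GSTU14 at -0.15. In the GSTU19 to GSTU23 cluster 3 of 4 tested genes had positive values and none was called, GSTU22 at 0.44 ± 0.18, GSTU19 at 0.40 ± 0.17 and GSTU20 at 0.12 ± 0.23, with GSTU23 at -0.05 ± 0.31. The GSTF4 to GSTF7 cluster had 3 of 3 tested genes positive with a median of 0.67, and its values spread over the libraries as described for GSTF6 and GSTF7 further on. The GSTF9-GSTF10 pair had a median of 0.34, and the low GSTU11-GSTU12 pair 0.33. In all, 22 of 24 tested members in clusters were positive with a median of 0.45, and 8 of 9 single genes with a median of 0.43. Among the single genes GSTU8 separated BAP from mock in ago10-1, with 8071, 4755 and 7173 normalized counts after BAP, against 4142, 4443 and 3542 in mock, and it overlapped in Col-0, with 9364, 5229.6 and 3176 after BAP, against 3618, 4852 and 2506 in mock. It was at 0.65 ± 0.24 over both genotypes and not called. GSTU28, another single tau gene, was near 0 at 0.06 ± 0.13.

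Taking each genotype by itself, 4 of 33 members were called in ago10-1 (GSTU17, GSTU1, GSTU25 and GSTU4, all higher), where 0.568% of all genes were called, and 1 in Col-0 (GSTU17), where 0.151% were. With the replicate number as a block, 11 members were called in ago10-1, all higher and beside 5.1% of all genes. With replicate 1 against the others as a block, 9 were called in ago10-1 (2.2% of all genes) and 3 in Col-0 (0.349%). In ago10-1 1 member, GSTU17, was called when any 1 mock library or BAP replicate 3 was left out (0.146% to 0.344% of all genes), 2 were without BAP replicate 1 (0.474%), and 5 were without BAP replicate 2 (3.24%). Every BAP library was above every mock library for 6 of 33 members in ago10-1 (4.61% of all genes) and for 6 of 33 in Col-0 (2.96%), with GSTU1 and GSTU17 in both sets and no member with every BAP library below mock (4.59% and 2.29% of all genes). The differences were uneven over the numbers. Within ago10-1, 28, 19 and 27 of 33 members were positive for numbers 1, 2 and 3, with medians of 0.49, 0.08 and 0.54. Of all genes tested, 53.3%, 48.7% and 52.7% were positive there. In Col-0, 31 members were positive for number 1 (52.8% of all genes), with a median of 1.00. For the other Col-0 libraries 24 were (50.2%), with a median of 0.21.

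**Figure D4:**
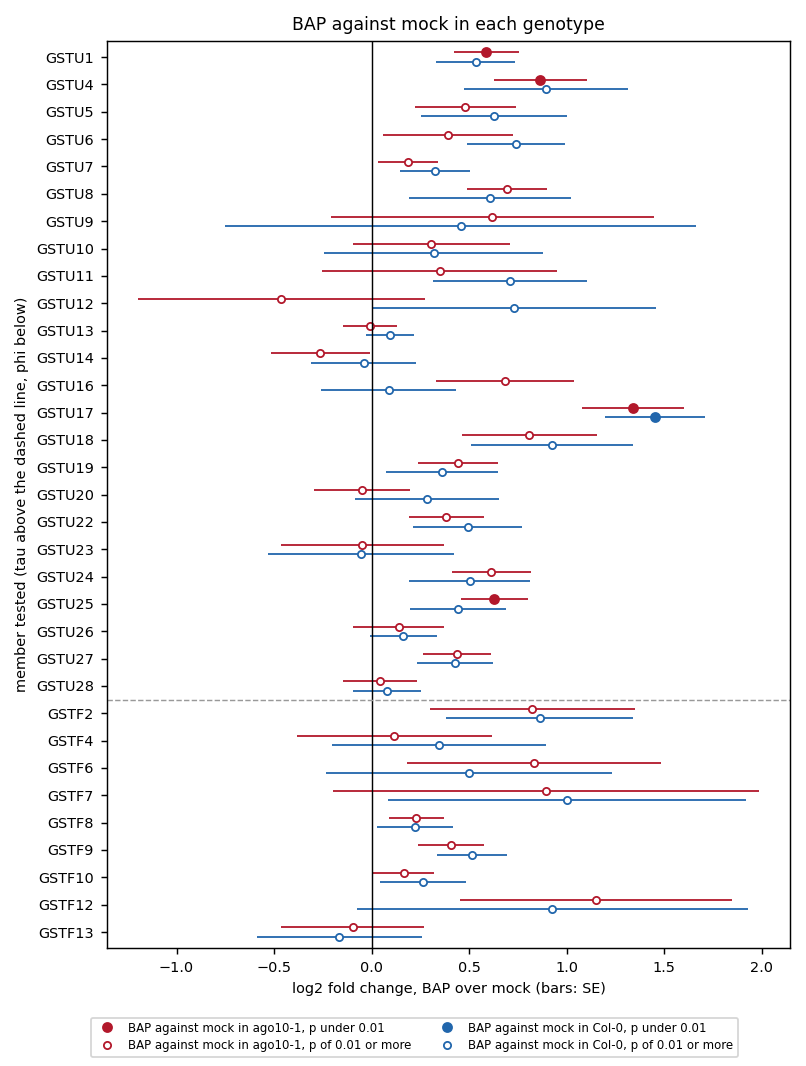
Log2 fold change of BAP over mock for the 33 tested members, in ago10-1 (red, upper of each pair) and Col-0 (blue, lower), with SE as bars and filled points for an unadjusted limma p under 0.01. GSTU17 is the only member filled in both genotypes, and 27 of 33 points in ago10-1 and 30 of 33 in Col-0 lie above 0.

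No member was called for a difference in the BAP response between the genotypes by the interaction term in limma (0.0208% of all genes were called, 0 of 33 members, and 0 also at an unadjusted p under 0.05, beside 0.463%), and edgeR and DESeq2 called none. Both shares of all genes lay below what evenly spread p values would give. This fit thus called few genes at all, and the lack of calls among the members says little. For GSTU17 the interaction was -0.11 ± 0.39 on the log2 scale, an SE that leaves room for sizeable differences in either direction. The widest value was that of GSTU12, -1.19, a gene with 4.17 to 31.5 normalized counts over the libraries.

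Other members have known roles. GSTU13, which takes part in indole glucosinolate metabolism during pathogen defence, had 4405, 3352 and 3314 normalized counts in ago10-1 BAP, 3623, 3986 and 3460.0 in ago10-1 mock, 3997, 3786 and 3263 in Col-0 BAP, and 3528, 3408 and 3377 in Col-0 mock. All groups overlapped, and the pooled log2 fold change was 0.04 ± 0.09. GSTF12, or TT19, which carries anthocyanins towards the vacuole, was low and scattered, with 15.7, 20.9 and 59.3 in ago10-1 BAP, 4.89, 22.1 and 13.8 in ago10-1 mock, 8.21, 52.4 and 12.7 in Col-0 BAP, and 2.36, 28.7 and 8.85 in Col-0 mock. It was at 1.04 ± 0.62 over both genotypes. A partner of the jasmonate-conjugating enzyme JAR1, GSTU20 had 223, 246 and 202 in ago10-1 BAP, 171, 327 and 219 in ago10-1 mock, 279, 157 and 113 in Col-0 BAP, and 113, 181 and 133 in Col-0 mock. These groups overlapped after BAP, and 1 ago10-1 mock library lay within the Col-0 mock values, with log2 differences of ago10-1 over Col-0 of 0.39 ± 0.34 after BAP and 0.72 ± 0.28 in mock, neither called, although with replicate 1 against the others as a block GSTU20 was called in mock.

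Another set of members was highest in the libraries numbered 1. GSTF6 (AT1G02930), which conjugates an intermediate of camalexin, the main phytoalexin of Arabidopsis, had 1226, 300.2 and 299.6 normalized counts in ago10-1 BAP, 542, 251 and 143 in ago10-1 mock, 889.7, 219 and 125 in Col-0 BAP, and 291, 257 and 115 in Col-0 mock. GSTF7, its near-identical neighbour, had 1182, 108 and 92.8 in ago10-1 BAP, 415, 56.9 and 77.6 in ago10-1 mock, 534, 114 and 40.4 in Col-0 BAP, and 104, 81.8 and 35.4 in Col-0 mock. The first value of each group, that of replicate 1, was the highest for both genes in all 4 groups. Averaged over the groups, replicate 1 was above the other libraries by 2.51 for GSTF7, 2.29 for GSTU9, 1.68 for GSTF6 and 1.13 for GSTU10 on the log2 scale, and these 4 of 33 members (12.1%) passed 1, beside 7.01% of all genes tested. By contrast GSTF12 had a mean difference of -1.67 for replicate 1, with GSTF13 at -0.94, GSTU6 at -0.69 and GSTU14 at -0.63. Within the classes this split tandem neighbours, since GSTU5 lay at 0.34 and GSTU6 at -0.69. For GSTF6 and GSTF7, BAP over mock was 0.67 ± 0.53 and 0.95 ± 0.77 over both genotypes and not called, and both were called in ago10-1 with the replicate number as a block.

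**Figure D5:**
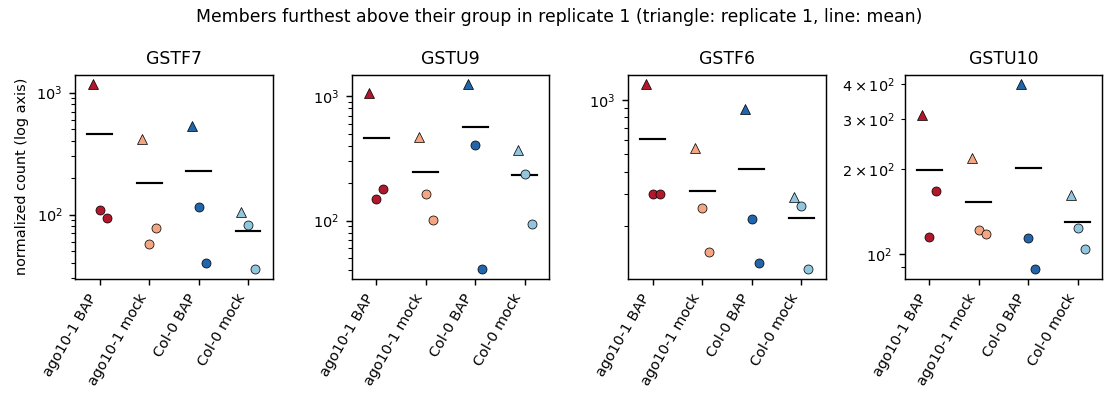
Normalized counts per library on log axes of the 4 members that lay furthest above their group in replicate 1 (triangles), with the group mean as a line. GSTF7, GSTU9, GSTF6 and GSTU10 have their highest value in replicate 1 in all 4 groups, and the gap is smallest in Col-0 mock.

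Between the genotypes no member was called in mock (0 of 33, beside 0.437% of all genes, with 2 at an unadjusted p under 0.05, beside 2.08%) and none after BAP (0 of 33, beside 0.13%, with 1 under 0.05, beside 0.578%) in limma, and edgeR and DESeq2 called none in either. With replicate 1 against the others as a block, GSTU7 and GSTU20 were called in mock (0.906% of all genes) and GSTU16 after BAP (0.443%). The log2 difference of ago10-1 over Col-0 was positive in 27 of 33 members in mock (51.4% of all genes), with a median of 0.20, and in 25 of 33 after BAP (53.3%), with a median of 0.17. Over the alternatives the tau median lay between 0.06 and 0.34 in mock and between 0.03 and 0.36 after BAP. A fit over both treatments, added after the values had been seen, called GSTU7 higher and GSTF4 lower in ago10-1 (2 of 33, beside 0.802% of all genes), neither with an adjusted p under 0.05.

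GSTF4 (AT1G02950) had 10.1, 12.5 and 15.2 normalized counts in ago10-1 BAP, against 64.3, 26.2 and 17.0 in Col-0 BAP, and 17.1, 11.1 and 7.76 in ago10-1 mock, against 30.7, 24.4 and 18.4 in Col-0 mock. The genotypes did not overlap in either treatment, although the nearest values after BAP, 15.2 and 17.0, were close. Over both treatments the log2 difference was -1.12 ± 0.34 (limma, adjusted p = 1.0), and without replicate 1 of every group it was -0.85 and no longer called. GSTF4 is overlapped over 1014 bases on the other strand by a long non-coding RNA gene listed at 0 to 1.37 normalized counts, and its level is near the filter. GSTU7 (AT2G29420) had 432, 376 and 404 in ago10-1 BAP, against 367, 324 and 283 in Col-0 BAP, and 409, 357 and 304 in ago10-1 mock, against 292, 253 and 230.0 in Col-0 mock. The genotypes did not overlap here either, 2 genes on the other strand that overlap GSTU7 had at most 49.8 normalized counts, and the log2 difference was 0.39 ± 0.11 (limma, adjusted p = 0.91). Every ago10-1 library lay above every Col-0 library for 2 of 33 members in mock (GSTU7 and GSTU12, 3.88% of all genes) and for 2 after BAP (GSTU7 and GSTU16, 1.97%), and below it for GSTF4 alone in both (3.08% and 1.62%).

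The near-identical pair GSTF2 and GSTF3 was low. GSTF2, which binds camalexin and other small molecules, had 73.0, 42.7 and 28.9 normalized counts in ago10-1 BAP, 45.3, 24.5 and 13.8 in ago10-1 mock, 56.1, 29.8 and 20.2 in Col-0 BAP, and 14.2, 21.7 and 17.0 in Col-0 mock, with overlap throughout. It is overlapped over 1442 bases by a protein-coding gene on the other strand that had 2865 to 4208 normalized counts, and without knowing whether strand was used in the counting the reads of the 2 genes cannot be told apart. GSTF3 was below the filter, with 18 reads over the 6 ago10-1 libraries, 10 of them in ago10-1 BAP replicate 1, and 0 over the 6 Col-0 libraries.

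Other genes of the pathway were taken from lists drawn up with earlier results of these data known. Of 12 genes of the other glutathione transferase classes (theta, zeta, lambda, dehydroascorbate reductases and TCHQD), 10 had a positive log2 fold change over both genotypes (median 0.14), and none was called. Of 10 genes for glutathione synthesis, recycling and conjugate transport, 1 was called higher, the glutathione reductase gene GR1 at 0.36 ± 0.11 (limma, adjusted p = 0.63), and the median was 0.05. Of 9 xenobiotic response genes 7 had positive values (median 0.31), and among 8 TGA factors and their partner SCL14 5 did (median 0.17), none called in either list, though TGA4 was called in ago10-1 alone at 0.57 ± 0.14 (limma, adjusted p = 0.91). Of 10 type-A response regulators, the early targets of cytokinin signalling, 8 had positive values, and the median was 0.35. The 2 called were ARR8 at 0.43 ± 0.09 and ARR9 at 0.41 ± 0.12. Neither had an adjusted p under 0.05 in this limma fit, which called 1.48% of all genes. Among 8 root tip markers 5 were positive, none was called, and their summed level was 4551 to 4969.6 in ago10-1 BAP, 4403 to 4670.0 in ago10-1 mock, 3627 to 4597 in Col-0 BAP and 4116 to 4794 in Col-0 mock.

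Markers of other cells belong beside these BAP results. The 5 root hair markers summed to 16249 to 31061 in ago10-1 BAP, 12364 to 18707 in ago10-1 mock, 15067 to 29230.1 in Col-0 BAP and 13784 to 25720.2 in Col-0 mock, with 4 of 5 positive over both genotypes and none called. The 6 green shoot markers summed to 363 to 974 in ago10-1 BAP, 259 to 459 in ago10-1 mock, 105 to 1775 in Col-0 BAP and 158 to 585 in Col-0 mock. Of these, RBCS3B was at 0 in all 6 mock libraries, and also in ago10-1 BAP replicate 2 and Col-0 BAP replicates 2 and 3. By contrast LHCB1.3, LHCA3 and RCA were present in every BAP and mock library. Over both genotypes the 4 green shoot markers tested were all positive, with a median log2 fold change of 0.49 and none called. The median of the 5 root hair markers was 0.38. The part of these markers in the results above was not tested. In whole root tips, fewer cells of a type and less RNA per cell cannot be told apart.

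Windows with and without the TGA factor core can be set beside the BAP response. The 12 tested members with TGACG in the 250 bases before their start had a median pooled log2 fold change of 0.53, and the 21 without it 0.39. In the tau class alone the medians were 0.54 (10 genes) and 0.23 (14 genes), and in the phi class 0.22 (2 genes) and 0.67 (7 genes). GSTU17, the member with the largest change, was among those without it. With AGATT the medians were 0.40 in 21 members with it and 0.60 in 12 without. These are descriptions over members that share neighbours and sequence, with no test.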

How the data were processed

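RNA of root tips was sequenced in 12 libraries, 3 per group. As given in the study's methods and in the submitters' processing notes, the authors used STAR for alignment, featureCounts with a TAIR10 annotation for counting and DESeq2 for normalization. The deposited values are a signal, normalized counts equal to whole reads divided by the size factor of each library, and 100% of values came out whole at a tolerance of 1e-06. The unit is not a raw count, so log2(normalized count + 1) was tested with limma 3.58.1 (R 4.3.3, trend, two-sided) over 19206 genes whose mean reached 10. Genes were called at an unadjusted p under 0.01 (the study gives its threshold as a p under 0.01), with Benjamini-Hochberg adjusted values beside it. Whether strand was used is not given in the sources used here. Recovered reads went into edgeR 4.0.16 and DESeq2 1.42.0 as alternatives, and pseudocount, filter, scaling, block and left-out libraries were varied. The fit was tested on simulated data that held no effect of the replicate number, so this test does not cover such an effect. Positions, exon lengths and sequences came from RefSeq's TAIR10.1, where all 41 members matched.

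Every member could be named, with values per library for members called, the 3 highest of each class per kb, near-identical pairs and members of known role. Members and lists were chosen with earlier results of these data known. Libraries with the same number deviated together from their group means. The correlations over genes were 0.67, 0.41 and 0.43 between ago10-1 BAP and mock for numbers 1, 2 and 3. They were 0.25 to 0.78 over all 12 pairs of the same number, beside -0.72 to 0.66 over 24 pairs of different numbers. These ranges overlapped, since ago10-1 BAP replicate 2 stood at 0.66 with Col-0 BAP replicate 3 and at 0.45 with Col-0 BAP replicate 2. The numbers entered the block fits and the differences within a number, and the main fits held no term for them. Libraries of 1 group differed by 13.8 to 177 times the sampling noise, so each was counted as 1 sample.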

Additional observations from a re-analysis of the deposited data

How the results depend on the processing

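Of the members called over both genotypes, GSTU17, GSTU1 and GSTU4 were called under each of 22 alternatives and GSTF9 under 21, while GSTU25, GSTU18 and GSTU27 fell short of the threshold under 6, 8 and 8 of them. Each kept its direction. The number of members called after BAP in ago10-1, 4 as reported, was 1 in a single fit over all 12 libraries (0.349% of all genes), 11 with the replicate number as a block, 9 with replicate 1 against the others as a block, and 1 to 5 over the fits that left out libraries (0.146% to 3.24% of all genes). In Col-0, 1 as reported, it was 3 with replicate 1 against the others as a block, 2 with DESeq2 (0.385% of all genes), and 1 to 2 over the fits that left out libraries (0.0469% to 0.427%). Over both genotypes, 7 as reported, it was 13 with replicate 1 against the others as a block and 3 to 10 over the fits that left out libraries (0.854% to 2.58% of all genes), with 4 without ago10-1 BAP replicate 3. Between the genotypes, where 0 were reported, the block of replicate 1 against the others gave 2 in mock and 1 after BAP, and the fits that left out libraries gave 0. In ago10-1 against Col-0 after BAP, the full replicate block gave 0. Fewer libraries in a fit also leave fewer degrees of freedom, and the cause of the other changes was not tested. Over the alternatives the median log2 fold change after BAP lay between 0.27 and 0.60 (tau) and 0.24 and 0.55 (phi) in ago10-1, 0.21 and 0.63 (tau) and 0.08 and 0.75 (phi) in Col-0, and 0.31 and 0.50 (tau) and 0.26 and 0.53 (phi) over both genotypes. That of the interaction lay on both sides of 0, between -0.21 and 0.19 (tau) and -0.24 and 0.26 (phi). Members near the filter, such as GSTF4, GSTU12 and GSTF12, rest on few reads.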
